A study of Homo sapiens with 4 samples.

Results

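A set of 44 genes of the mesenchymal programme and of the actin cytoskeleton was examined across the 4 arrays of a KSR1 hairpin experiment. It holds mesenchymal transition factors and genes controlled by SRF with its MRTF cofactors or by YAP and TAZ. Members were chosen by name, and a member was measured where at least 1 probe set was annotated to that gene alone. This held for 41 of the 44 genes, with 114 probe sets among them, out of 19775 genes named in this way. ACTG1, FLNA and FHL1 had no such probe set and were not analysed here as single genes. Of the 41, 33 were bright enough to be analysed, among 12468 genes in all, by a mean log2 value of at least 6.08, the median over every probe set. The 8 dimmer members were ZEB1, ZEB2, SNAI2, TWIST1, ACTG2, CNN1, CCN2 and ANKRD1.

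All arrays came from HCT116, an established human colorectal adenocarcinoma line grown in serum-containing medium. Untransfected cells gave 1 array, cells with shCTRL, a hairpin with no target, gave 1, and cells with shKSR1 hairpin #1 or hairpin #2 gave 1 each. The 3 hairpin-bearing kinds of cells had gone through lipofection with a hairpin vector and puromycin selection of clones, and the untransfected cells had not. The sources used here do not say if an array stood for 1 clone or for several. KSR1 is a scaffold for the RAF, MEK and ERK kinases, and the hairpins were meant to lower it. With 1 array in each group no difference between 2 arrays has a replicate check, and cell kind, culture, clone selection and array cannot be told apart. These are bulk samples, in which fewer cells of a type and less RNA per cell cannot be told apart.

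As background, cells that undergo an epithelial to mesenchymal transition use the factors ZEB1, ZEB2, SNAI1, SNAI2 and TWIST1, which repress epithelial genes, and gain vimentin and fibronectin. SRF is a transcription factor that binds a DNA element called the CArG box, and its cofactors MRTFA and MRTFB are held inactive by monomeric actin, so that actin polymerisation turns on the genes of actin itself and of its binding proteins. YAP1 and its paralog TAZ, encoded by WWTR1, are coactivators that bind TEAD factors at the sequence GGAATG and are restrained by the LATS kinases of the Hippo pathway. CCN1, CCN2, ANKRD1, AMOTL2, AJUBA, AXL and LATS2 are among their known targets, and the products of AMOTL2 and LATS2 restrain YAP in turn.

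The letters that SRF and TEAD recognise were looked for in the promoters of the members. Many members are known as SRF or YAP targets partly because of such sites, so the shares that follow describe the set and are not independent of how it was chosen. RefSeq windows of assembly GRCh38.p14, from 250 bases before to 50 bases after each annotated start, were present for 34 of the 44 genes. Windows were absent for SNAI1, SNAI2, TWIST1, ACTB, TAGLN, MYL9, TEAD1, TEAD4, CCN1 and CAVIN1, which were therefore not searched. A CArG box (CC, 6 bases that are each A or T, then GG, which was searched on both strands) lay in a window of 9 of these 34 genes (26.5%), against 438 of all 27305 genes with windows (1.60%). The 9 were ACTG1, ACTG2, ACTN1, CNN2, FHL1, FHL2, FLNA, SRF and TPM4. GGAATG, searched on both strands and able to share its GG with the end of a CArG box, lay in 16 of the 34 (47.1%) against 4567 of all genes (16.7%). Members with several annotated starts had several chances of a match, with 77 windows for the 34 genes, against 35116 windows for the 27305. Counted by window, a CArG box lay in 14.3% of member windows against 1.29% of all windows. GGAATG lay in 20.8% of member windows against 14.0% of all, a smaller contrast than by gene. A match describes the letters of the window and not a bound site.

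CArG boxes of the 5 analysed members that had one are shown in capitals within their surrounding bases, 5′ to 3′ on the strand of the gene. They lay at chr6:43171214-43171268 on the plus strand (SRF, with 2 boxes), chr14:68977703-68977762 on the minus strand (ACTN1), chr19:1026494-1026553 on the plus strand (CNN2), chr19:16067340-16067399 on the plus strand (TPM4) and chr2:105399076-105399135 on the minus strand (FHL2), all upstream of the annotated start.
SRF: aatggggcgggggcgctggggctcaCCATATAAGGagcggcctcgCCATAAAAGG
ACTN1: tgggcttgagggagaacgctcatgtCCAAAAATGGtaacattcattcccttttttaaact
CNN2: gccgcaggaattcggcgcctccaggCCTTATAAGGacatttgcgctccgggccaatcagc
TPM4: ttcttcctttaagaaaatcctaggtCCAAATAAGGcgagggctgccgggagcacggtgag
FHL2: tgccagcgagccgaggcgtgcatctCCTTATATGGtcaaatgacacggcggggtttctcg
FHL2, second box at chr2:105438580-105438639 on the minus strand: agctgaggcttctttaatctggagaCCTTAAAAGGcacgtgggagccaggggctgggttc

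All 6 YAP targets with windows held GGAATG or its reverse complement CATTCC, and 3 that were also analysed on the arrays are shown with those letters in capitals. They lay upstream of the start at chr3:134374486-134374541 on the minus strand (AMOTL2), chr14:22976871-22976926 on the minus strand (AJUBA) and chr19:41226518-41226573 on the plus strand (AXL, at 1 of its starts).
AMOTL2: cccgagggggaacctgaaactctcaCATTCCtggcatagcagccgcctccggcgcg
AJUBA: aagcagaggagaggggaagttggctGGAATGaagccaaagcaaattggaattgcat
AXL: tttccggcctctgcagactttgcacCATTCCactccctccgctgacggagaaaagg

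The arrays had medians between 50.7 and 52.0 intensity units. The targeted gene was read first. KSR1 had intensities of 209 in untransfected, 211 in shCTRL, 141 in hairpin #1 and 171 in hairpin #2 cells, so both hairpin arrays were lower on this probe set. Hairpin arrays differed from the others by -0.40 on the log2 scale (SE 0.12, limma adjusted p = 0.67), and its other 3 probe sets were dim. All 11 epithelial markers were analysed, with summed intensities of 41430, 42593, 39695 and 50063 in the order untransfected, shCTRL, hairpin #1, hairpin #2. Of 11 fibroblast markers 3 were analysed, with sums over all 11 between 641 and 727, and of 4 leukocyte markers 0 were. Of 8 smooth muscle markers, which include the members ACTA2 and CNN1, 5 were analysed. The sum over all 8 was 829 in untransfected and between 951 and 973 in the other 3 arrays. Below, 4 intensities in a row follow that order of arrays, and every difference is on the log2(intensity + 16) scale, which understates differences of dim genes.

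**Figure D1:**
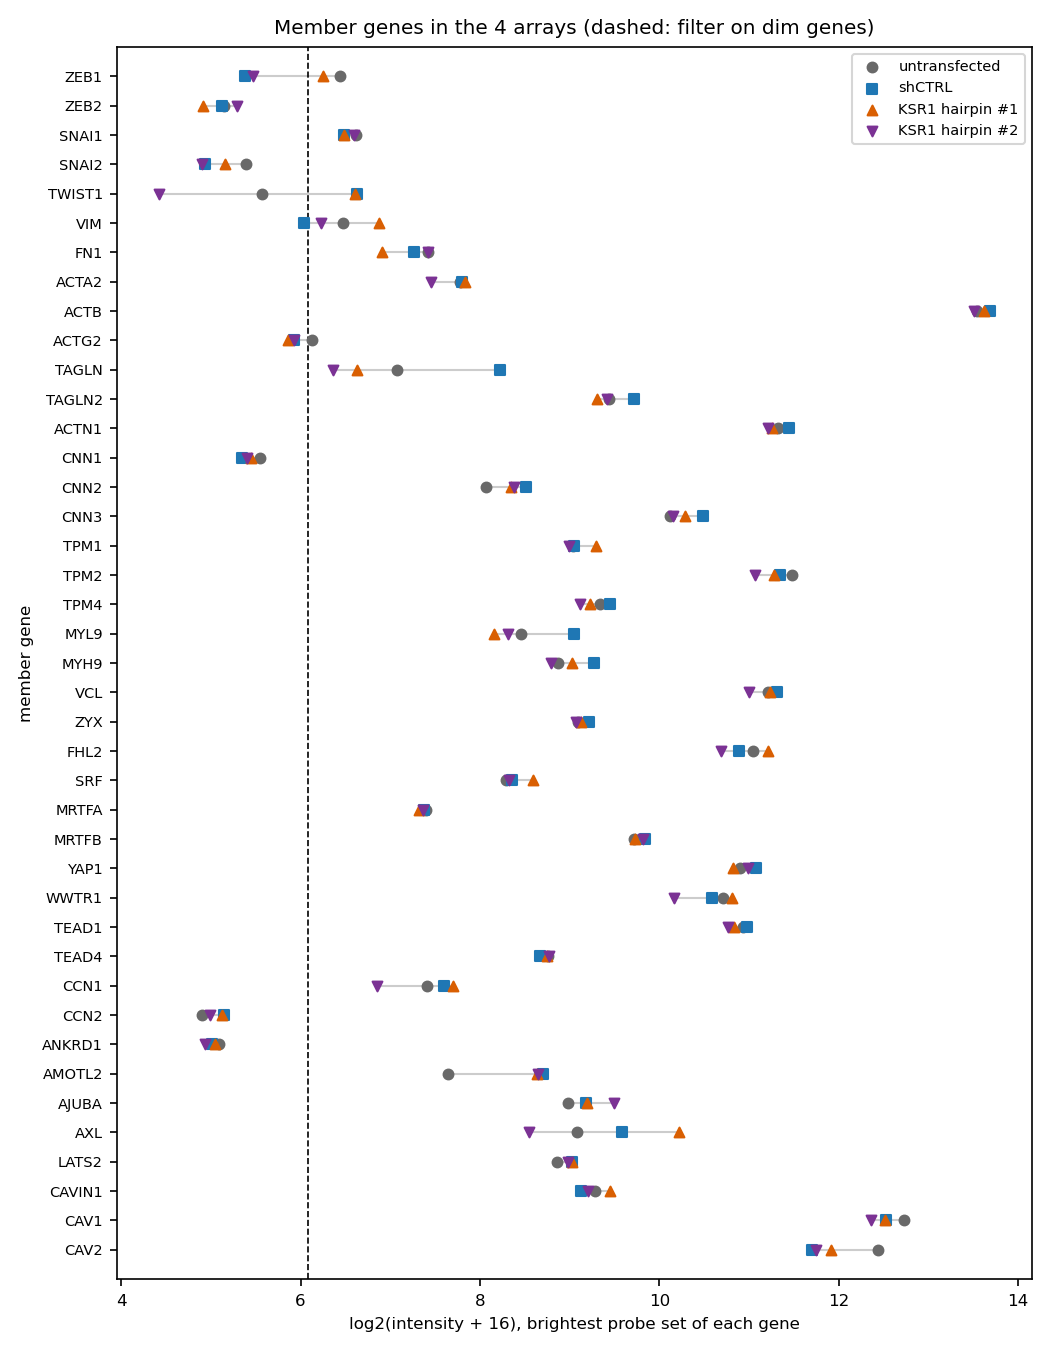
Level of each of the 41 measured members in the 4 arrays, as log2(intensity + 16) of its brightest probe set, with 1 symbol per array, a grey line over the range and a dashed line at the filter of 6.08. Most members lie within a narrow range, while TAGLN, AMOTL2 and AXL spread over more than 1 log2 unit. ZEB1 and TWIST1, whose means are under the filter, also spread over more than 1 log2 unit.

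Most of the set did not differ by 2-fold between any arrays. Of the 33 analysed members, 3 had a range of at least 1 log2 unit over the 4 arrays, TAGLN, AMOTL2 and AXL, against 3.87% of all genes analysed. In the limma comparison of both hairpin arrays with both others, 0 of the 33 passed an adjusted p of 0.05, as did 0 of all 12468 genes (0%), and the smallest adjusted p of a member was 0.668. At an unadjusted p under 0.05 there was 1 member, TAGLN, which was lower, against 3.06% of all genes lower and 4.01% higher. The test has 2 residual degrees of freedom and measures the spread between different hairpins and between the 2 kinds of control cells.

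Every transition factor but SNAI1 had a mean under the filter, though ZEB1 and TWIST1 lay above the array medians in some arrays. SNAI1, a repressor of E-cadherin, was the only one of the 5 that was analysed, with intensities of 82.3, 73.6, 73.4 and 80.7. The 4 values overlapped and the hairpin arrays differed from the others by -0.01 (SE 0.11, limma adjusted p = 0.98). ZEB2, a zinc finger repressor, lay at 19.3, 18.9, 14.1 and 23.2, and SNAI2 at 25.9, 14.6, 19.5 and 13.8, all below the array medians. ZEB1, the other zinc finger repressor of the pair, had 71.0, 25.6, 60.2 and 28.3 on its brightest probe set. There it was higher in untransfected and hairpin #1 cells than in shCTRL and hairpin #2 cells, and its groups overlapped. Its mean lay under the filter, and its other probe sets were dimmer still, between 7.36 and 24.6.

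TWIST1, a basic helix-loop-helix factor, had intensities of 31.4, 82.7, 81.7 and 5.40. Thus it was above the array medians in shCTRL and hairpin #1 cells, which were alike, below the median in untransfected cells and under the 25th percentile of the array in hairpin #2 cells, near the lowest intensity of that array (4.94). No size is given for differences from such a value. As its mean was below the filter, TWIST1 entered no count made with the filter on all 4 arrays. It did enter counts made with no filter or without hairpin #2.

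Vimentin and fibronectin, the structural genes of the mesenchymal state, took no common course. VIM, the intermediate filament gene, had 72.7, 49.4, 101 and 59.0, with hairpin #1 highest, shCTRL lowest and the groups overlapping (0.30, SE 0.27, limma adjusted p = 0.76). FN1, the matrix glycoprotein gene, had 155, 138, 104 and 155, with hairpin #1 lowest and untransfected and hairpin #2 level with each other (-0.18, SE 0.20, limma adjusted p = 0.80). The other 3 FN1 probe sets above the filter were also lowest with hairpin #1, and they were highest with hairpin #2. In hairpin #1 cells VIM and FN1 thus differed from shCTRL with opposite signs, by 0.84 and -0.36.

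The actin genes themselves were nearly level on their brightest probe sets. ACTB, cytoplasmic beta-actin, had 11903, 13219, 12546 and 11601. Its 5′ control probe set, at 4283, 5862, 5797 and 4940, was instead lowest in untransfected cells. So was its middle control probe set, at 7883, 9069, 9290 and 8217. ACTA2, the smooth muscle alpha-actin that marks myofibroblasts, had 203, 206, 212 and 160, so 3 arrays were alike and hairpin #2 was lowest. ACTG2, the enteric smooth muscle actin, was dim at 53.9, 44.7, 42.2 and 44.6. The ratio of the 3′ to the 5′ actin control probe sets was 2.68 in untransfected cells and 2.09, 2.01 and 2.22 in the others, and its part in these values was not tested.

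TAGLN gave the largest difference of the analysed set. It encodes transgelin, an actin cross-linking protein known as an SRF target of smooth muscle. Its intensities were 118, 282, 82.8 and 66.2, so shCTRL stood above the other 3 arrays and both hairpin arrays lay below both controls. shCTRL exceeded untransfected by 1.15 (2.22-fold), and hairpins #1 and #2 were lower than shCTRL by log2 differences of -1.59 and -1.86. The nearest arrays of the 2 sides, untransfected and hairpin #1, differed by only -0.45. The difference of both hairpin arrays from both others was -1.15 (SE 0.40, limma adjusted p = 0.67), and without shCTRL it was -0.06. That value comes from another probe set, which is the brightest once shCTRL is left out. On the probe set used here the hairpins differed from untransfected cells by -0.45 and -0.71.

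The 3 TAGLN probe sets did not all give this pattern. A second one had 110, 231, 88.6 and 77.8, with shCTRL highest and hairpin #2 lowest again. The third had 94.7, 94.0, 86.0 and 94.4 and was level. With the mean over the 3 probe sets the hairpin difference was -0.68. Among the 500 genes nearest in brightness to TAGLN, the SD of the difference between shCTRL and untransfected was 0.28, so the shCTRL peak exceeded the spread of like genes between the 2 control arrays.

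MYL9, the regulatory myosin light chain of smooth muscle and non-muscle cells, was also highest in shCTRL on its brightest probe set. It had 334, 513, 270 and 303. shCTRL exceeded untransfected by 0.60, hairpins #1 and #2 differed from shCTRL by -0.89 and -0.73, and both lay below untransfected by at least 0.14 (-0.51, SE 0.22, limma adjusted p = 0.67). The SD for the 500 genes of like brightness was 0.27. The other MYL9 probe set, near the filter at 61.1, 60.9, 57.1 and 45.8, had no shCTRL peak and was lowest with hairpin #2. Without shCTRL the MYL9 difference was -0.21, and without untransfected it was -0.81.

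The other actin-binding and contractile genes differed less but often in the same order. TAGLN2, the broadly expressed transgelin, had 676, 825, 614 and 667, ACTN1, the actin cross-linker alpha-actinin, 2545, 2769, 2423 and 2357, and MYH9, the heavy chain of non-muscle myosin IIA, 453, 600, 506 and 426. In each of these, shCTRL was the highest array. Among the calponins, CNN2 had 252, 350, 310 and 316 and CNN3 1100, 1422, 1237 and 1126, again with shCTRL highest, and CNN1, the smooth muscle form, was dim at 24.5 to 30.6. The focal adhesion genes VCL (vinculin) and ZYX (zyxin) had 2347, 2523, 2388 and 2031, and 530, 580, 543 and 523.

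The tropomyosins, which coat actin filaments, split by gene. TPM4 had 630, 682, 581 and 538 and TPM2 2846, 2585, 2460 and 2136, both lower in both hairpin arrays, by -0.22 (SE 0.10) and -0.24 (SE 0.12), each with a limma adjusted p of 0.67. This held on the brightest probe sets alone, and neither gene was separated when its probe sets were averaged. TPM1 had 511, 513, 609 and 492, with hairpin #1 highest, and its groups overlapped. FHL2, a LIM-domain cofactor and known SRF target, had 2097, 1874, 2355 and 1627, so hairpin #1 was highest and hairpin #2 lowest, a difference between the hairpins of -0.53.

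In all, 10 of the 13 analysed actin-binding and contractile genes were highest in shCTRL on their brightest probe sets. They were TAGLN, TAGLN2, ACTN1, CNN2, CNN3, TPM4, MYL9, MYH9, VCL and ZYX. Over all 33 members 16 were highest in shCTRL (48.5%), against 24.2% of all genes analysed. The count of 10 was the same after quantile normalization and after median centring. It was 8 when a gene's probe sets were averaged, without TPM4 and VCL. Other probe sets above the filter were divided. Those of TAGLN2 and ZYX also peaked in shCTRL. The other CNN3 probe set, at 375, 364, 365 and 353, was highest in untransfected cells. So were TPM4 probe sets at 553, 502, 513 and 436 and at 433, 316, 345 and 310, and a dim one of ACTN1. At the other end, 9 of the 13 and both analysed actins were lowest in hairpin #2 on their brightest probe sets. So were 16 of the 33 members (48.5%), against 25.1% of all genes. Only 2 of the 33 were highest in hairpin #2 (6.06%), against 30.1% of all genes. FN1, with equal values in untransfected and hairpin #2 cells, was counted under untransfected alone. Its other 3 probe sets above the filter were highest in hairpin #2. Untransfected cells were highest for 6 members (22.4% of all genes) and lowest for 7 (30.3%), shCTRL was lowest for 4 (22.9%), and hairpin #1 was highest for 9 (23.3%) and lowest for 6 (21.6%). The members share RNA and array, so these shares describe 4 arrays and are not repeated observations. The summed smooth muscle markers did not peak in shCTRL. SMTN, the brightest of them, had 260, 369, 411 and 432, while LMOD1, under the filter, was highest in shCTRL. The fibroblast sum was highest in untransfected cells, and COL1A1, at 433, 400, 372 and 395, made up most of it in each array.

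**Figure D2:**
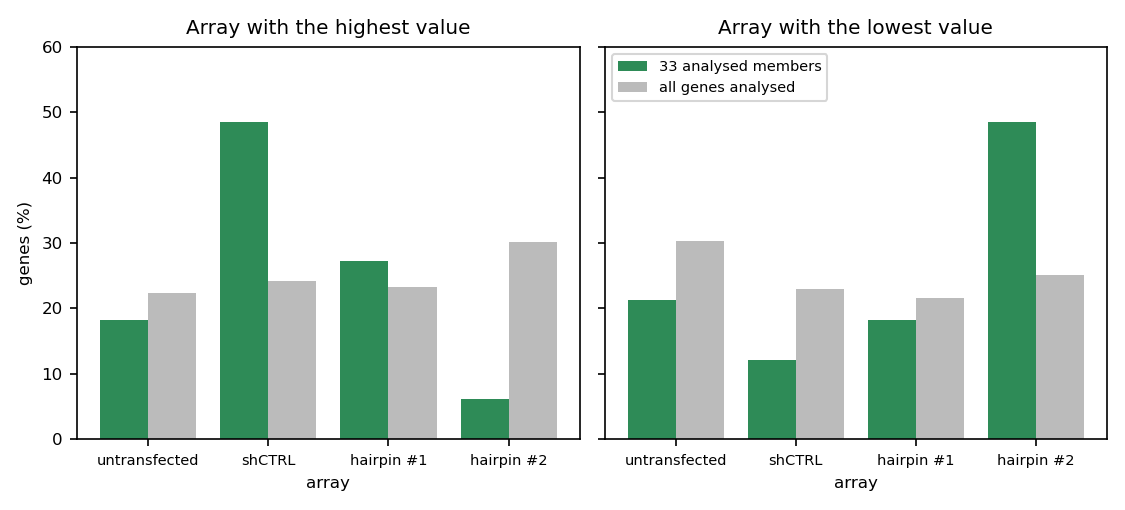
Percent of the 33 analysed members, beside the percent of all 12468 genes analysed, that had their highest or their lowest value in each array. Members were most often highest in shCTRL (48.5%) and most often lowest in hairpin #2 (48.5%), against 24.2% and 25.1% of all genes.

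Of the regulators of these genes, SRF had 297, 312, 370 and 304, with hairpin #1 highest and the other 3 arrays alike (0.13, SE 0.13, limma adjusted p = 0.78). MRTFA had 152, 150, 143 and 149, and MRTFB had 828, 902, 829 and 886. The differences were -0.05 and -0.01, and MRTFB, though highest in shCTRL, exceeded untransfected there by only 0.12. Other MRTFA probe sets above the filter gave 0.22 and -0.04, and that of MRTFB gave 0.13.

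Of the YAP side, WWTR1, which encodes TAZ, had the widest range of the 4 regulators. It had 1659, 1522, 1778 and 1127, lowest with hairpin #2, which differed from hairpin #1 by -0.65, and all 3 of its probe sets were lowest there. Because hairpin #1 was the highest array, the groups overlapped (-0.16, SE 0.24, limma adjusted p = 0.86). The difference was -0.49 without hairpin #1 and 0.16 without hairpin #2. YAP1 had 1895, 2153, 1787 and 2019 on its brightest probe set, a difference of -0.09, while its other 2 probe sets above the filter gave 0.29 and 0.11. TEAD1 and TEAD4, the DNA-binding partners, had 1934, 1999, 1811 and 1719, and 417, 390, 414 and 419. On these probe sets TEAD1 was lower in both hairpin arrays by -0.15 and TEAD4 differed by 0.05. The other TEAD1 probe set above the filter gave 0.05, and that of TEAD4, at 318, 287, 326 and 352, lay above both controls in both hairpin arrays (0.16).

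Among the YAP targets, AXL, a receptor tyrosine kinase linked to the mesenchymal state, set the 2 hairpins apart. It had 527, 749, 1172 and 358. Hairpin #1 was the highest array and hairpin #2 the lowest, with both controls between them. Hairpin #1 exceeded shCTRL by 0.63 and untransfected by 1.13, and hairpin #2 differed from shCTRL by -1.03 and from hairpin #1 by -1.67 (3.17-fold). The second AXL probe set, at 144, 135, 190 and 92.1, had the same highest and lowest array. The opposite values left a hairpin difference of 0.05 (SE 0.58, limma adjusted p = 0.99), which was -0.79 without hairpin #1 and 0.88 without hairpin #2.

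CCN1, a secreted matricellular protein and an immediate early YAP and SRF target, was also lowest with hairpin #2. It had 154, 178, 192 and 99.9, and its second probe set had 77.0, 83.9, 92.4 and 64.7, with the same order of arrays. Hairpin #2 differed from shCTRL by -0.75 and from hairpin #1 by -0.85, while genes of like brightness had an SD of 0.36 between the hairpins and of 0.31 between the control arrays. The difference of both hairpins from both controls was -0.23 (SE 0.30, limma adjusted p = 0.84), and it was 0.20 without hairpin #2. The related CCN2, at 13.9 to 19.5, and ANKRD1, a muscle ankyrin repeat gene at 14.5 to 17.9, were too dim to be compared.

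AMOTL2, an angiomotin that binds YAP and holds it out of the nucleus, parted untransfected cells from the rest. It had 183, 401, 381 and 386 on its single probe set. shCTRL exceeded untransfected by 1.06 (2.09-fold), and the hairpins differed from shCTRL by -0.07 and -0.05. The hairpin difference of 0.47 (SE 0.36, limma adjusted p = 0.73) became -0.06 once the untransfected array was left out and 1.00 once shCTRL was.

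AJUBA, a LIM-domain inhibitor of the LATS kinases, had 489, 563, 569 and 705, and was the 1 member with both hairpin arrays above both controls. The nearest arrays, shCTRL and hairpin #1, differed by 0.01, so this separation rests on an almost equal pair (0.26, SE 0.15, limma adjusted p = 0.68). LATS2 itself had 447, 507, 504 and 491 on its brightest probe set and was level, while a dimmer one, at 88.3, 101, 117 and 64.8, was lowest with hairpin #2. The caveolar genes, which build membrane pits and are also read out by YAP, were highest in untransfected cells for CAV1 (6791, 5867, 5825 and 5235) and CAV2 (5548, 3314, 3830 and 3425), and highest with hairpin #1 for CAVIN1 (609, 541, 685 and 575). CAV2 in shCTRL differed from untransfected by -0.74, and its second probe set, at 2423, 1387, 1666 and 1366, was also highest in untransfected cells. A dimmer CAV2 probe set, near the filter at 61.0, 48.0, 59.2 and 66.1, was highest with hairpin #2. Of the other CAVIN1 probe sets, that at 259, 245, 247 and 227 was highest in untransfected cells. That at 103, 89.6, 121 and 118 was highest with hairpin #1.

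**Figure D3:**
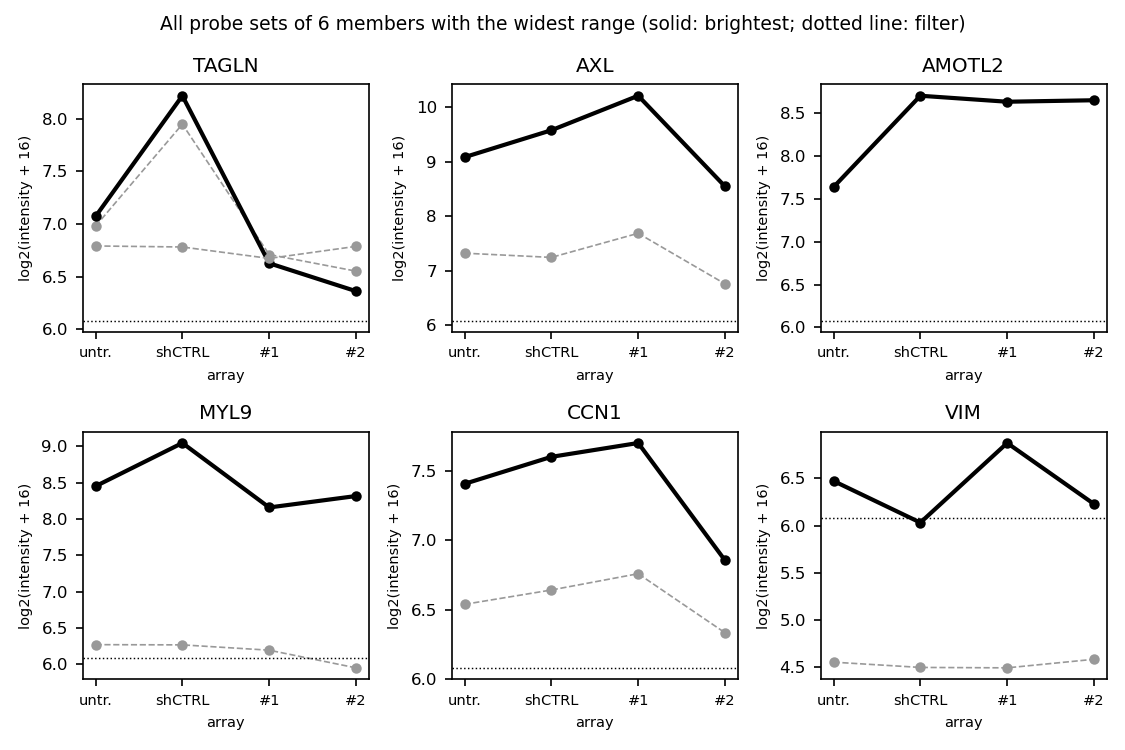
Every probe set of the 6 analysed members with the widest range, as log2(intensity + 16) in untransfected, shCTRL, hairpin #1 and hairpin #2 cells, with the brightest probe set as a solid line, others dashed and the filter of 6.08 dotted. TAGLN and MYL9 peak in shCTRL on the brightest probe set, AXL and CCN1 peak with hairpin #1 and are lowest with hairpin #2 on both probe sets, and 1 of 3 TAGLN probe sets is level.

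Both hairpin arrays lay above both controls for 1 of the 33 members, AJUBA, against 22.5% of all genes analysed. They lay below both for 9 (27.3%), against 18.4% of all genes: TAGLN, TAGLN2, ACTN1, TPM2, TPM4, MYL9, MRTFA, TEAD1 and CAV1. The nearest arrays of the sides differed by only -0.02, -0.01 and -0.01 for TAGLN2, MRTFA and CAV1. These genes were not separated below after median centring. For 0 members did the gap between the sides reach 0.5, against 0.16% of all genes with such a gap above and 0.441% below, and for 0 did it reach 1 (0.0241% above and 0.0321% below). The count below was 11 after quantile normalization (22.3% of all genes), with all 9 among them, and 6 after median centring (15.2%). With the mean over probe sets it was 5 of 31, 4 of them among the 9, against 16.5% of all genes, so the members then stood at the background. It was 19 without the untransfected array (33.5% of all genes), 19 without hairpin #1 (33.4%), 11 without shCTRL (31.2%) and 12 without hairpin #2 (31.8%), the last 2 near the background. TAGLN, ACTN1 and MYL9 were below in each of the settings with all 4 arrays, except that TAGLN was too dim for a filter at the 75th percentile.

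Pairs of arrays gave few 2-fold members. From untransfected to shCTRL, TAGLN and AMOTL2 were higher (0.481% of all genes were) and 0 lower (0.369%). Against shCTRL, hairpin #1 had 0 higher (0.112%) and TAGLN lower (0.433%), and hairpin #2 had 0 higher (0.979%) and TAGLN and AXL lower (0.922%). Between the hairpins, hairpin #2 had 0 higher (1.07%) and AXL lower (0.642%). Against untransfected cells, hairpin #1 had AXL higher (0.249%) and 0 lower (0.505%), and hairpin #2 had AMOTL2 higher (1.29%) and 0 lower (0.987%).

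The direction of smaller differences with hairpin #1 depended on which control was used, and with hairpin #2 it did not. Comparisons that name shCTRL share that array, so their values are set side by side only. Of the 33 members, 22 were above 0 in shCTRL against untransfected (54% of all genes), 12 in hairpin #1 against shCTRL (50.6%) and 7 in hairpin #2 against shCTRL (51.5%). Against untransfected cells, 19 were above 0 with hairpin #1 (53.8%) and 9 with hairpin #2 (54.4%). Between the hairpins, 11 were higher with hairpin #2 (51.3%). The member medians of the 5 differences from a control were 0.11, -0.07, -0.16, 0.03 and -0.08 in the order given, and over all genes each median lay between 0.00 and 0.03. Of the 33 members, 9 had opposite signs in the 2 hairpins against shCTRL, and AXL was the only one of them with both sizes above 0.5.

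**Figure D4:**
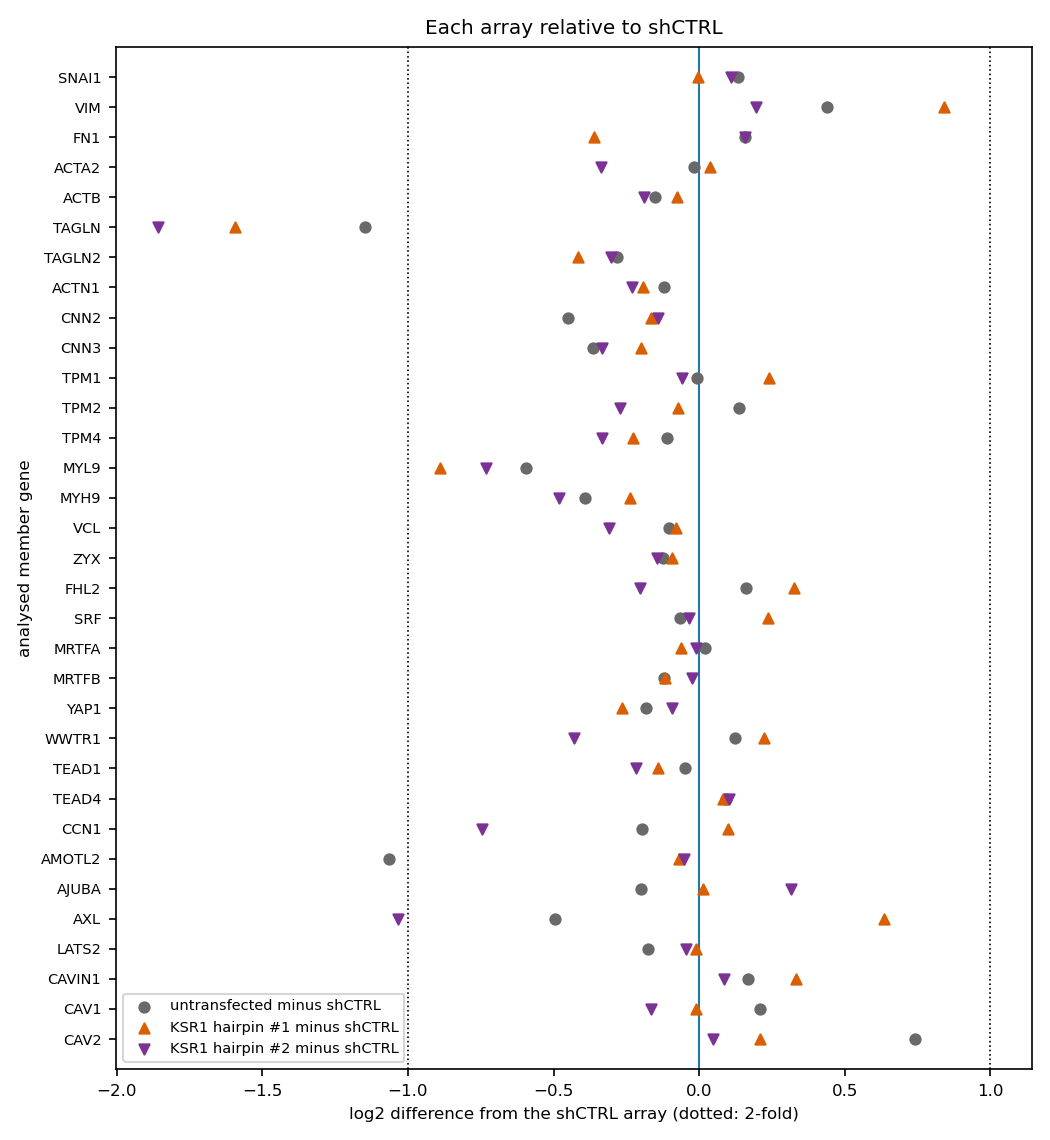
Difference of untransfected, hairpin #1 and hairpin #2 cells from shCTRL for each analysed member, in log2 units of intensity + 16, with a line at 0 for shCTRL, which all 3 differences share, and dotted lines at 2-fold. TAGLN and MYL9 lie left of 0 in all 3 arrays, AMOTL2 lies far left of 0 in untransfected cells and close to 0 with the hairpins, and AXL on opposite sides in the hairpins (0.63 and -1.03).

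Other genes of the same pathways were listed apart from the members. Of 20 other SRF and MRTF cytoskeletal targets, 20 were analysed, 0 passed the limma test, 4 lay above both controls in both hairpin arrays (PDLIM7, MYL12A, MYL12B and CAPZA1) and 5 below (MYLK, PDLIM5, TES, TLN1 and TGFB1I1), near the 22.5% and 18.4% of all genes. TGFB1I1, the focal adhesion adaptor Hic-5, had 286, 407, 135 and 265 (-0.80, SE 0.35), with shCTRL highest as for TAGLN but hairpin #1 lowest. PDLIM5, a PDZ and LIM-domain protein of actin bundles, had 3979, 4172, 3453 and 1719 (-0.74, SE 0.34), and its low array was hairpin #2. LIMA1, an actin bundling protein, was highest with hairpin #1 and overlapped (0.31, SE 0.30). The count highest in shCTRL was 6 of 20 (30%), against 24.2% of all genes.

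Of 17 other YAP and TEAD targets measured, 15 were analysed, 3 lay above both controls (MYOF, FJX1 and BIRC5) and 4 below (ASAP1, IGFBP3, GADD45A and ARHGEF17), near the 22.5% and 18.4% of all genes. Of the 15, 8 were lowest in hairpin #2 (53.3%), against 25.1% of all genes. The list split both ways in that array. MYOF, F3, FJX1, CCDC80, DOCK5 and BIRC5 were highest there, as were 30.1% of all genes. NT5E, the surface enzyme CD73, had 1227, 651, 808 and 99.9, so hairpin #2 was 2.53 log2 units below shCTRL while hairpin #1 lay between the controls (-1.56, SE 0.98, limma adjusted p = 0.70). IGFBP3, a secreted growth factor binding protein, had 63.0, 142, 52.6 and 47.4, the shCTRL peak that TAGLN also had (-0.76, SE 0.34). ASAP1, an ARF GTPase activator, had 1302, 1562, 1141 and 726 (-0.64, SE 0.24). F3, tissue factor, had 694, 349, 319 and 859 and was highest with hairpin #2, the reverse of AXL and CCN1.

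Of the Hippo components 14 were analysed, with 4 above and 4 below both controls (28.6% each), against 22.5% and 18.4% of all genes. Those above were LATS1, MOB1A, TEAD3 and FAT1, and those below were SAV1, WWC1, VGLL4 and TAOK1. LATS1, the paralog of LATS2, had 343, 335, 437 and 461 (0.39, SE 0.09, limma adjusted p = 0.67). VGLL4, a competitor of YAP for TEAD, and SAV1, a scaffold of the Hippo kinases, were lower by -0.33 (SE 0.14) and -0.29 (SE 0.14). TEAD2 had 180, 352, 267 and 274, with untransfected lowest, and its groups overlapped.

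Of 14 other mesenchymal genes measured, only 4 were analysed, of which 0 lay above and 2 below both controls, LOXL2 and THBS1, too few to set against the background. LOXL2, a lysyl oxidase that cross-links matrix, had 851, 694, 363 and 301, with a gap of -0.91 and a difference of -1.18 (SE 0.16, limma adjusted p = 0.64). S100A4, a calcium-binding protein tied to motility, had 3317, 7393, 7540 and 6937, low in untransfected cells alone, as AMOTL2 was.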

How the data were processed

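The deposited intensity values were linear, with 1 value per probe set and array from the authors. The sources used here do not say how they were summarised or normalized. Per the labels' protocols, biotinylated cRNA was made from 2.5 micrograms of Trizol-extracted RNA. Intensities were converted to log2(intensity + 16), where the deposited scale was linear. Names came from the platform annotation, and each gene was read from its brightest probe set by mean log2, which favours 1 probe set where several disagree. Genes with a mean of at least 6.08 were analysed.

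Between single arrays a difference counted from 1 log2 unit (2-fold) on, without a test. limma 3.58.1 (R 4.3.3), fitted on all 12468 genes, compared both hairpin arrays with both others, with Benjamini-Hochberg adjustment, a threshold of 0.05 and 2 residual degrees of freedom, and was tested on simulated data. A gene is separated where both hairpin arrays lie above, or below, both others, and the gap is how far apart the closest arrays of the sides lie. Nothing states that arrays came from separate cultures, so p-values measure only the spread between these arrays, and no sequencing depth applies. An exact permutation test of 2 arrays against 2 cannot give a two-sided p below 0.333.

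The members and lists were chosen with earlier results of these data known. Full values were given for members with a difference of 1 log2 unit between any pair of arrays, the transition factors, VIM, FN1 and the SRF, MRTF, YAP and TEAD genes, other members were described by role, and of each other list up to 3 genes by the size of the hairpin difference and up to 3 by range were named. Separated genes, and members 2-fold apart between single arrays, are named beside the first count given. Promoters came from RefSeq for GRCh38.p14. One list of genes is not reported here.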

Additional observations from a re-analysis of the deposited data

Results flagged for a closer look

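AXL was the analysed member whose 2 hairpins went opposite ways against shCTRL, each by more than 0.5 log2 units, with differences of 0.63 for hairpin #1 and -1.03 for hairpin #2. Each value is 1 array against 1 shared shCTRL array, and the difference between the hairpins was not tested.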

How the results depend on the processing

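No paired analysis was possible because each group has 1 array. The limma comparison called 0 members in all 13 settings it was run under, and the smallest adjusted p of a member lay between 0.347 and 0.915. The count of members above both controls was 0 after quantile normalization, 2 after median centring and 2 with averaged probe sets, and it lay between 3 and 10 when 1 array was left out, where 35.8% to 39.8% of all genes did. The count below was 5 with the mean over probe sets and lay between 11 and 19 when 1 array was left out. The count of 2-fold members of shCTRL against untransfected was 0 with a pseudocount of 64, 4 with no filter, 1 with a filter at the 75th percentile and 1 with the mean over probe sets. For hairpin #1 against shCTRL it was 2 with a pseudocount of 1, and 0 with the 75th percentile filter or the mean over probe sets. For hairpin #2 against shCTRL it was 1 with a pseudocount of 64, with the 75th percentile filter or with the mean over probe sets, and for hairpin #2 against hairpin #1 it was 2 with no filter. The cause of these shifts was not tested, beyond the fewer genes or arrays of the filter and left-out settings. The member median of the hairpin difference, -0.08, lay between -0.15 and -0.02 over the alternatives. With no detection calls, signal over background is unknown, so values under the filter are not told apart from background.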

Other observations

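The cytoplasmic actins were also read by 9 probe sets annotated to ACTG1 and ACTB together, which entered no comparison. Their median intensities were 17560 in untransfected, 16848 in shCTRL, 16988 in hairpin #1 and 17603 in hairpin #2 cells. Of the 9, 1 was highest in shCTRL and 0 were lowest in hairpin #2, the arrays in which the actin-binding members were most often highest and lowest.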
